A study of Mus musculus with 8 samples.

Results

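The proteasome is the protease complex that degrades ubiquitin-tagged proteins. Its barrel-shaped core is built from alpha subunits (Psma genes), which form the outer rings, and beta subunits (Psmb genes), which form the inner rings and carry the peptidase sites. The regulatory cap is built from ATPases (Psmc genes), which unfold substrates and feed them into the core, and from non-ATPase subunits (Psmd genes), which bind ubiquitin, remove it and hold the cap together. In immune cells and in cells exposed to interferon, Psmb8, Psmb9 and Psmb10 take the places of the catalytic subunits Psmb5, Psmb6 and Psmb7, and the resulting immunoproteasome supplies peptides for MHC class I presentation. When proteasome activity is short, the transcription factor NRF1 (Nfe2l1) is known to raise the transcription of proteasome genes together.

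The RNA of 34 proteasome subunits was followed, chosen by gene symbol from the 54232 gene rows of the expression table: 17 core subunits, 3 of them immunoproteasome subunits, and 17 cap subunits. All 34 were found and all 34 passed the filter on low values. The cells were mouse cells of C57BL/6 background labelled female germline stem cells (FGSCs), germ cells taken from the ovary and grown in culture. They had received either C28, a compound given only as a code (028 in sample titles), or the solvent DMSO, and RNA was taken at 3 h, with 3 libraries in each arm. The title of the series names autophagy, the breakdown of cell contents in lysosomes, as the process under study. One H3K27ac library of each arm was not used here. Separate cultures are not stated for the replicates, so p-values measure only the spread between these libraries.

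The libraries held between 16930212 and 19197376 gene-assigned reads. Replicate 1 stood apart in both arms: the chi-square per gene was 27.2 to 29.0 between C28 replicate 1 and the other C28 libraries and 23.7 to 24.3 between DMSO replicate 1 and the other DMSO libraries, against 5.23 and 5.88 between replicates 2 and 3. Same-numbered libraries deviated together, but replicate 1 standing apart would by itself make them do so, and no label states a pairing. Values from limma with replicate number as a block, which take the numbers as pairs, stand beside those without it where they change a call. The labelled cell type was not borne out by its defining markers: 3 of 10 germline markers averaged at least 10 normalized counts (Tex14, Ifitm3 and Zbtb16), Pou5f1 and Dppa3 had no read in any library, and Ddx4 had 4 reads in all. Of the leukocyte markers 9 of 10 reached that level, of the fibroblast and feeder markers 6 of 8, and of the ovarian somatic markers 2 of 8. The summed germline markers came to 664 to 864 normalized counts in C28 libraries and 659 to 825 in DMSO libraries. In bulk RNA, fewer cells of a type and less RNA per cell cannot be told apart.

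No proteasome subunit changed detectably after 3 h of C28. The 34 log2 fold changes ran only from -0.13, for the immunoproteasome subunit Psmb10, to 0.13, for the cap subunit Psmd11, and their median was 0.02, against 0.00 over all 19054 genes tested. At an adjusted p of 0.05, limma called 0 of 34 subunits, where it called 0.136% of all genes (0.121% rose and 0.0157% fell), and the smallest adjusted p was 0.702 (Psmd11). With the replicate block limma also called 0 of 34, where it called 4.8% of all genes, and the smallest adjusted p was 0.162 (Psmd11). At an unadjusted p under 0.05, limma without the block had 0 of 34 subunits (7.83% of all genes) and with it 2 of 34 (18.2% of all genes), Psmd11 and Psmc4. On the recovered reads, edgeR called 0 of 34 (0.147% of all genes), DESeq2 0 of 34 (0.955%) and edgeR with the block 0 of 34 (6.99%). In the authors' deposited table the lowest adjusted p of the 34 was 0.923, again for Psmd11, and the log2 fold changes lay between -0.11 and 0.12.

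The precision of these estimates set a narrow bound for most subunits. Without the block, the 95% intervals of 33 subunits, Psmb9 apart, lay between a log2 fold change of -0.37 (Psmb10, 0.772-fold) and 0.30 (Psmd12, 1.23-fold). With the block they lay between -0.31 (Psmb10, 0.808-fold) and 0.23 (Psmd11, 1.17-fold). The interval of Psmb9 ran from -0.73 to 0.65 without the block and from -0.22 to 0.15 with it. The median half-width of the interval was 0.17 for the subunits without the block and 0.11 with it. Subunit RNA also varied little from library to library: the coefficient of variation over the 6 libraries had a median of 5.96%, and ran from 1.68% for Psmd4, a ubiquitin receptor of the cap, to 31.6% for Psmb9.

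**Figure D1:**
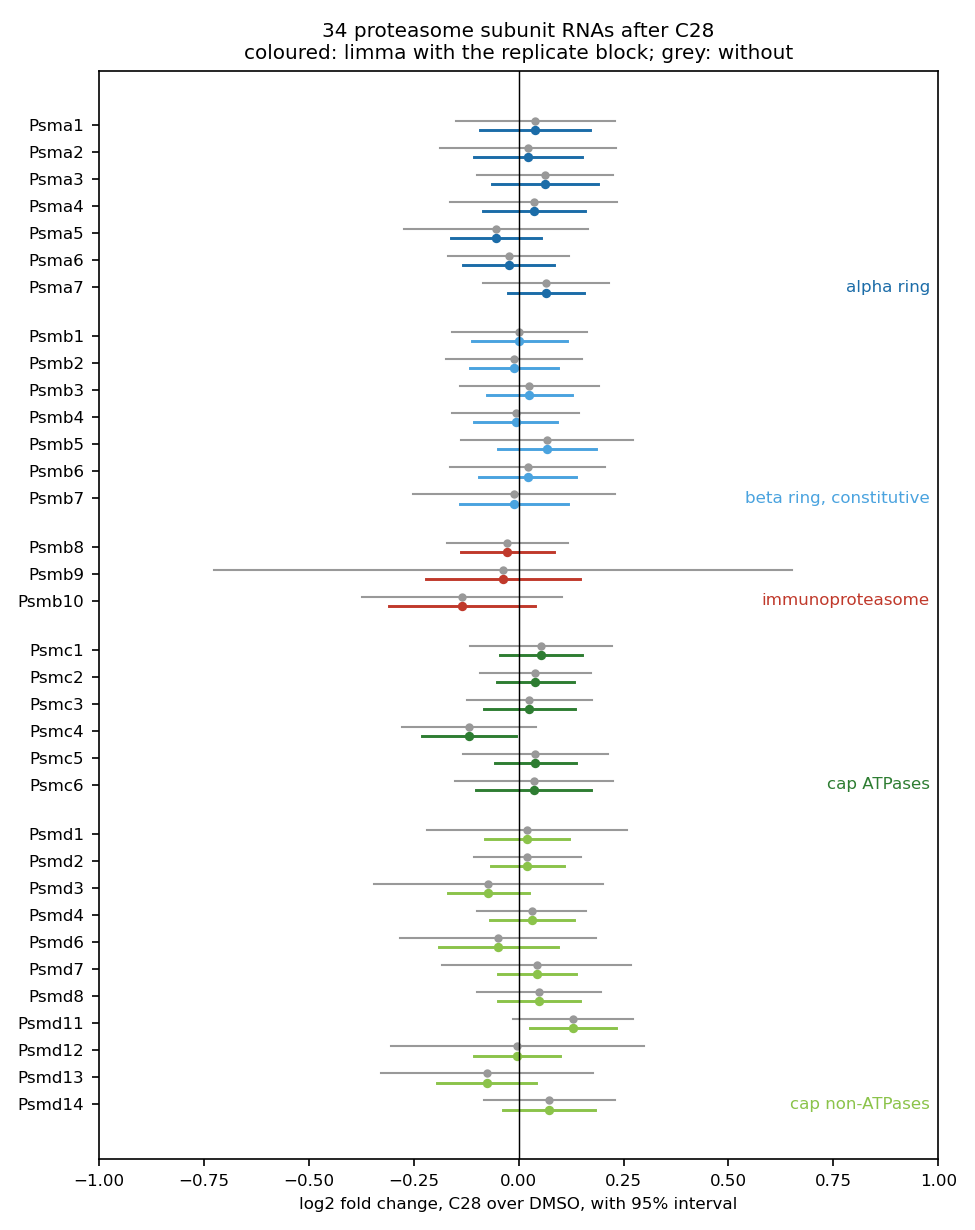
Log2 fold change (C28 over DMSO, horizontal axis) of each of the 34 proteasome subunits, grouped by place in the complex, with 95% intervals from limma with the replicate block (coloured) and without it (grey). All points lie between -0.13 and 0.13, and only the intervals of Psmd11 and Psmc4 with the block leave out 0.

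The alpha ring showed no call in either direction among its 7 subunits, with a median log2 fold change of 0.04. Psma7, an alpha subunit, had the highest fold change of the ring, with 9497, 10140 and 9401 normalized counts in C28 replicates 1 to 3 and 9403, 9652 and 8716 in DMSO replicates 1 to 3. Each C28 library lay above the DMSO library of the same number, but the arms overlapped, and the log2 fold change was 0.06 ± 0.06 (SE). Psma5 had the lowest, with 4243, 5300 and 4959 normalized counts in C28 replicates 1 to 3 and 4764, 5364 and 4890 in DMSO replicates 1 to 3. Its log2 fold change was -0.05 ± 0.09, and replicate 1 was the lowest library of each arm. Psma1, Psma2, Psma3 and Psma4 had log2 fold changes of 0.02 to 0.06, and Psma6 had -0.02.

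Of the 7 constitutive beta subunits, none was called and the median log2 fold change was 0.00. Psmb5, which carries the chymotrypsin-like site and is the target of most proteasome inhibitors, had 1344, 1554 and 1433 normalized counts in C28 replicates 1 to 3 and 1260, 1451 and 1421 in DMSO replicates 1 to 3. Each C28 library lay above its numbered DMSO partner, by less than the spread among replicates, and the log2 fold change of 0.07 ± 0.09 was the highest of the ring. The lowest was that of Psmb2, a structural beta subunit, with 2861, 3175 and 3165 normalized counts in C28 replicates 1 to 3 and 3001, 3241 and 3027 in DMSO replicates 1 to 3. Its log2 fold change was -0.01 ± 0.07, and the arms overlapped. Psmb1, Psmb3 and Psmb4, also without a catalytic site, had log2 fold changes of 0.00, 0.03 and -0.01. Psmb6, with the caspase-like site, had 2590, 3104 and 2756 normalized counts in C28 replicates 1 to 3 and 2749, 2844 and 2711 in DMSO replicates 1 to 3, a log2 fold change of 0.02 ± 0.08. Psmb7, with the trypsin-like site, had 1944, 2414 and 2370 normalized counts in C28 replicates 1 to 3 and 2139, 2462 and 2163 in DMSO replicates 1 to 3, a log2 fold change of -0.01 ± 0.10. In both genes the C28 and DMSO libraries were interleaved.

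None of the 3 immunoproteasome subunits was called, and all 3 had log2 fold changes below 0, with a median of -0.04. Psmb8, the counterpart of Psmb5, had 1673, 1627 and 1633 normalized counts in C28 replicates 1 to 3 and 1722, 1631 and 1673 in DMSO replicates 1 to 3, a log2 fold change of -0.03 ± 0.06. Psmb10, the counterpart of Psmb7, had 871, 1058 and 953 normalized counts in C28 replicates 1 to 3 and 1138, 1063 and 960 in DMSO replicates 1 to 3. The log2 fold change of Psmb10 was -0.13 ± 0.10 (limma adjusted p = 0.86, with the block 0.413), and nearly all of it came from replicate 1, since in replicates 2 and 3 the arms were within 10 normalized counts of each other. Psmb9, the counterpart of Psmb6, had 511, 290 and 278 normalized counts in C28 replicates 1 to 3 and 511, 285 and 305 in DMSO replicates 1 to 3. For Psmb9 the libraries split by replicate number and not by arm, and the log2 fold change was -0.04 ± 0.30.

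**Figure D2:**
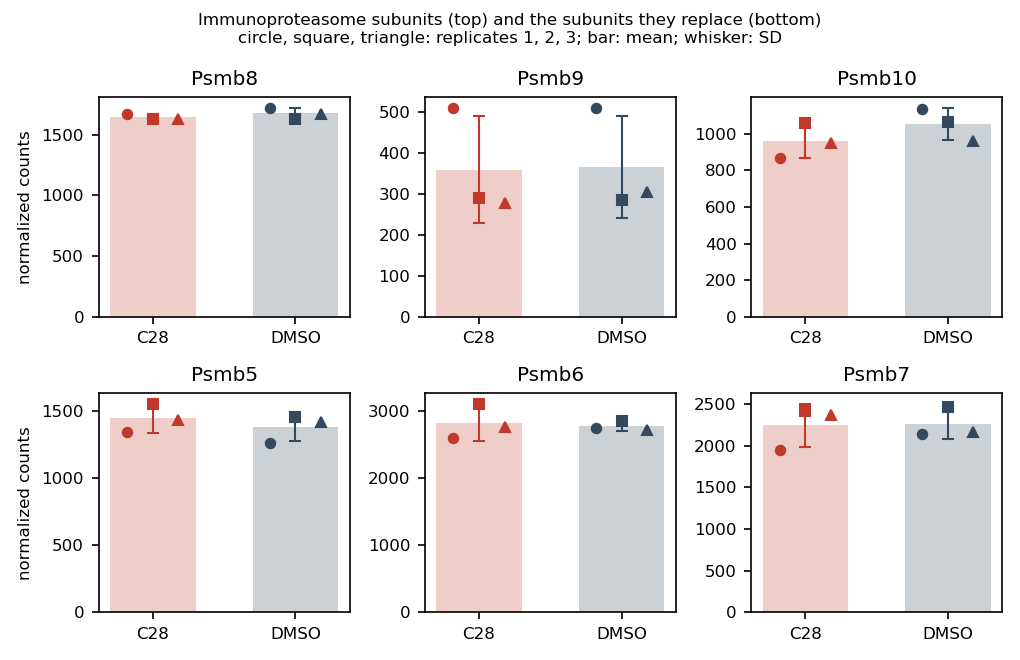
Normalized counts (vertical axes, starting at 0) of the 3 immunoproteasome subunits (top row) and the constitutive catalytic subunits they replace (bottom row) in C28 and DMSO libraries; bars are means of 3 libraries, whiskers SD, and circles, squares and triangles replicates 1, 2 and 3. Psmb9 had 511 normalized counts in replicate 1 of both arms and 278 to 305 in the other 4 libraries.

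The cap showed the widest fold changes of the constitutive subunits, but again no call among its 17 members, and its median log2 fold change was 0.03. Among the 6 ATPases the median was 0.04, and 5 of 6 were above 0. Psmc1 had the highest fold change of these, with 4459, 5158 and 4960 normalized counts in C28 replicates 1 to 3 and 4482, 4799 and 4745 in DMSO replicates 1 to 3, a log2 fold change of 0.05 ± 0.07. Psmc4 was the exception, with 2828, 3112 and 3193 normalized counts in C28 replicates 1 to 3 and 3280, 3404 and 3220 in DMSO replicates 1 to 3. All 3 C28 libraries lay below all 3 DMSO libraries, and the log2 fold change of Psmc4 was -0.12 ± 0.07 (limma adjusted p = 0.768, with the block 0.251). Psmc2, Psmc3, Psmc5 and Psmc6 had log2 fold changes of 0.03 to 0.04.

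Among the 11 non-ATPase subunits of the cap the median log2 fold change was 0.02. Psmd11, a scaffold subunit of the lid, had 4047, 4089 and 4047 normalized counts in C28 replicates 1 to 3 and 3497, 3849 and 3801 in DMSO replicates 1 to 3. All 3 C28 libraries lay above all 3 DMSO libraries, and the log2 fold change of Psmd11 was 0.13 ± 0.06. The C28 libraries of Psmd11 averaged 4061 ± 25 normalized counts and the DMSO libraries 3716 ± 191 (SD, n = 3 each). Psmd13, another lid subunit, had the lowest fold change, with 2466, 3256 and 2814 normalized counts in C28 replicates 1 to 3 and 2835, 3216 and 2902 in DMSO replicates 1 to 3, a log2 fold change of -0.08 ± 0.11 with overlapping arms. Psmd14, the deubiquitinase of the lid, had a log2 fold change of 0.07 ± 0.07, and Psmd2 and Psmd4, which bind ubiquitin or ubiquitin-like shuttle factors, had 0.02 and 0.03. The remaining subunits Psmd1, Psmd3, Psmd6, Psmd7, Psmd8 and Psmd12 lay between -0.07 and 0.05. Psmd11 and Psmc4 were the only members of the 34 whose arms did not overlap, 1 in each direction, where 14.7% of all genes had arms that did not overlap (8.16% with C28 above and 6.49% with C28 below).

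No difference in response between core and cap was detectable. Of the 17 cap subunits 12 had log2 fold changes above 0 and 5 below, and of the 17 core subunits 9 were above and 8 below. The median difference between C28 and DMSO libraries of the same number was higher for the cap than for the core by 0.06 in replicate 1 and by 0.01 in replicate 3, and the cap minus core difference was -0.02 in replicate 2. The SD of these 3 differences was 0.04, so the order of cap and core was within the spread between replicates. No test was made on the list medians.

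The small differences between arms followed the replicate number. In replicate 1, the C28 library was higher than the DMSO library for 8 of 34 subunits, with a median log2 difference of -0.07. In replicate 2 it was higher for 27 of 34, with a median of 0.05, and in replicate 3 for 28 of 34, with a median of 0.06. Over all genes tested the C28 library was higher for 51.2%, 50.2% and 51.2% in replicates 1 to 3. The core followed this pattern with 2, 12 and 14 of 17 subunits higher in C28, and the cap with 6, 15 and 14 of 17. The 3 immunoproteasome subunits did not, with 0, 1 and 0 of 3 higher in C28. Subunits of 1 library shared its deviation, so these counts do not stand for independent observations. With replicate 1 left out of both arms and the block kept, limma called 0 of 34 subunits, where it called 4.48% of all genes. The median log2 fold change of the subunits was then 0.06, 11 of 34 had an unadjusted p under 0.05 (18.7% of all genes did), and the smallest adjusted p was 0.0544, for Psma1.

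Summed over the 34 subunits, proteasome RNA made up 0.718%, 0.798% and 0.777% of gene-assigned reads in C28 replicates 1 to 3 and 0.745%, 0.778% and 0.749% in DMSO replicates 1 to 3. The core took 0.317%, 0.349% and 0.335% in C28 replicates 1 to 3 and 0.336%, 0.338% and 0.320% in DMSO replicates 1 to 3. The cap took 0.401%, 0.449% and 0.443% in C28 replicates 1 to 3 and 0.409%, 0.441% and 0.429% in DMSO replicates 1 to 3. In core and cap alike the highest and the lowest share both belonged to C28 libraries, and the DMSO libraries lay within that range. C28 replicate 1 held the lowest value of 19 of the 34 subunits and C28 replicate 2 the highest value of 21.

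**Figure D3:**
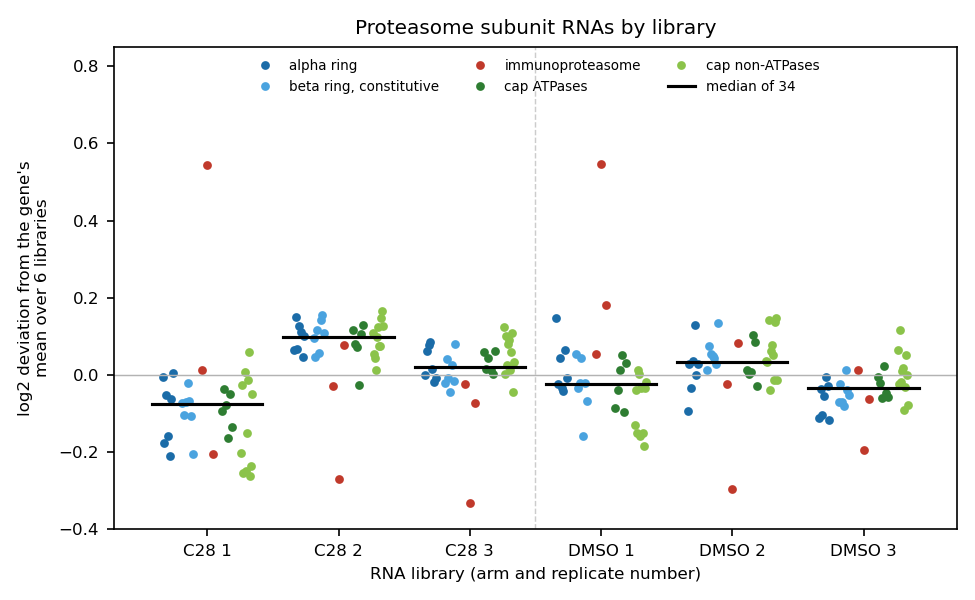
Log2 deviation of each of the 34 subunits from its own mean over 6 libraries (vertical axis), by library; colours mark the place in the complex and black lines the median of the 34. The medians run from -0.08 in C28 replicate 1 to 0.10 in C28 replicate 2, with the DMSO libraries between them, and the 2 highest points are Psmb9 in replicate 1 of each arm.

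Among the genes kept by the filter on low values, the share of subunits that differed between replicate 1 and the other replicates was near that of all genes. They were compared in a limma contrast of replicate 1 with replicates 2 and 3, with arm as a term. Replicate 1 was chosen for this contrast because it stood apart in these same libraries. The calls and p-values of the contrast, here and below, therefore describe that difference and are no independent test of it. Of the 34 subunits 1 was higher in replicate 1, where 9.51% of all genes were. Lower were 5 of 34, where 10.1% of all genes were, so with this filter on low values these counts show nothing particular to the subunits. The subunit that was higher was Psmb9, which averaged 511 normalized counts in replicate 1 and 289 in replicates 2 and 3, a log2 difference of 0.82 ± 0.09 (limma adjusted p = 7.19e-05). The subunits that were lower were the lid members Psmd12 (-0.33 ± 0.05), Psmd3 (-0.30 ± 0.05) and Psmd7 (-0.23 ± 0.05), the cap base subunit Psmd1 (-0.25 ± 0.05) and the alpha subunit Psma5 (-0.19 ± 0.06). Psmd12, for example, averaged 2996 normalized counts in replicate 1 and 3777 in replicates 2 and 3. For Psma5 the limma adjusted p was 0.0483, and this call was lost with a pseudocount of 0.5 or 10 and without the filter on low values. Of all 34 subunits 28 had a value below 0 in this contrast and 6 above, with a median of -0.07 against -0.01 over all genes tested. Since subunits of 1 library shared its deviation, this count does not stand for independent observations. The other immunoproteasome subunits did not follow Psmb9: Psmb8 had 0.05 ± 0.05 and Psmb10 -0.02 ± 0.09, neither called.

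Of 15 tested genes that work with the immunoproteasome in class I antigen presentation, 10 were higher in replicate 1, as Psmb9 was, where 9.51% of all genes were, and 0 were lower. The other 5 were not called: Pdia3 had a log2 difference of -0.03 and Irf2, Calr, Irf1 and Tapbpl had 0.06, 0.13, 0.29 and 0.38. This list was chosen with earlier results of these data known, so its count beside that share is no test. Over the 15 genes the median log2 difference was 0.38. The heavy chain H2-D1 averaged 8583 normalized counts in replicate 1 and 4066 in replicates 2 and 3, a log2 difference of 1.07 ± 0.06. H2-K1, the other heavy chain, had 1.01 ± 0.06, the class I transactivator Nlrc5 0.96 ± 0.09, and B2m, the light chain, 0.53 ± 0.06. The peptide transporter subunit Tap1 averaged 1144 normalized counts in replicate 1 and 610 in replicates 2 and 3, a log2 difference of 0.90 ± 0.08, and its partner Tap2 had 0.62 ± 0.08. After C28 the same list had 0 of 15 calls in either direction, with and without the block, and a median log2 fold change of 0.03. Within it, Nlrc5 had a C28 log2 fold change of -0.21 ± 0.34 and Tap2 one of 0.19 ± 0.23.

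Cell type markers also differed by replicate number. The summed leukocyte markers came to 25921 and 25166 normalized counts in replicate 1 of C28 and DMSO, and to 21276 to 21607 in the other 4 libraries. The leukocyte list did not move as one: 4 of 10 markers were higher in replicate 1 in limma (Ptprc, Coro1a, Laptm5 and Fcer1g, which carry the sum) and 4 were lower, and the median log2 difference was -0.17. The lower ones were Tyrobp (-1.87 ± 0.18), Lyz2 (-1.61 ± 0.38), Cd68 (-1.58 ± 0.14) and Adgre1 (-1.12 ± 0.07). The summed fibroblast and feeder markers came to 2123 and 1886 normalized counts in replicate 1 of C28 and DMSO, and to 2923 to 5003 in the other 4 libraries. Of that list 6 of 7 tested markers were lower in replicate 1 and 0 higher. Over all genes 9.51% were higher in replicate 1 and 10.1% lower. Col3a1, Lum and Csf1r averaged under 10 normalized counts. The part of these cell types in the subunit differences by replicate was not tested.

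**Figure D4:**
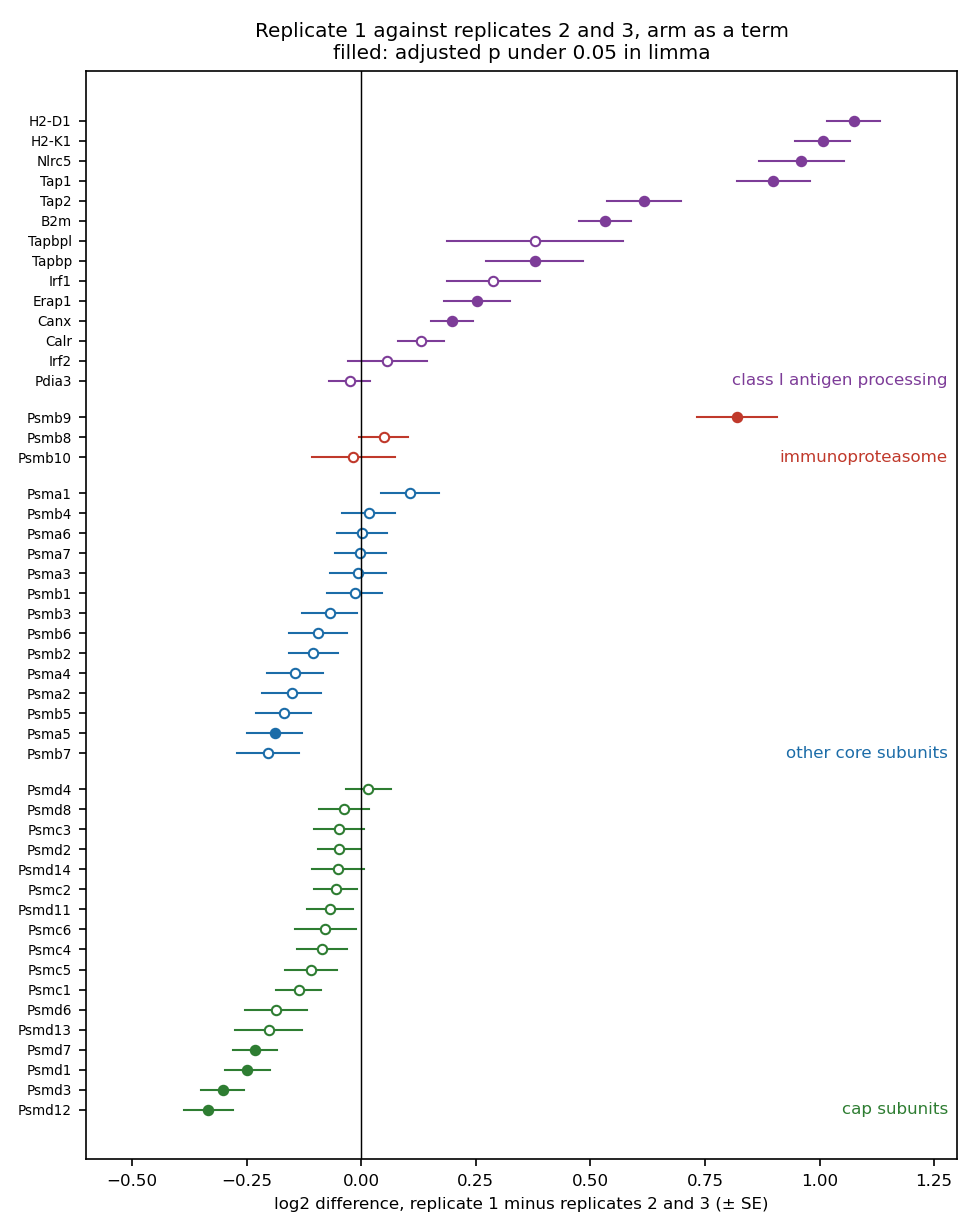
Log2 difference of replicate 1 minus replicates 2 and 3 with arm as a term (horizontal axis, ± SE) for 14 class I antigen processing genes, immunoproteasome, other core and cap subunits; filled points passed an adjusted p of 0.05 in limma. Psmb9 (0.82) lies among the class I genes and away from Psmb8 (0.05) and Psmb10 (-0.02), and most other subunits lie below 0.

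Psmb9 and Tap1 are neighbours in the mouse genome, with their starts 225 bases apart and pointing away from each other. In RefSeq on GRCm38.p6 the order of genes on chromosome 17 is H2-DMb1, Psmb9, Tap1, Psmb8, Tap2 and H2-Ob. The sequence between both starts, chr17:34187331-34187555 on the strand of Tap1, is shown because it separates a subunit and a class I gene that were both higher in replicate 1. Capitals mark a CCAAT match and a GAANNTTC match (the letters of a heat shock element).
Tap1-Psmb9: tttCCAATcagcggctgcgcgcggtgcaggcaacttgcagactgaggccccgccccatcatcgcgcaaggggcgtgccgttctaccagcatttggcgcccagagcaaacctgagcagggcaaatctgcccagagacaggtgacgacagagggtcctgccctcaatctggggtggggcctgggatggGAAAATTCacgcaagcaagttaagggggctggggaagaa

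Several genes around the proteasome rose after C28 in limma with the block, which called no subunit. Further lists were read beside the subunits: accessory subunits, assembly factors and activators, transcription factors of proteasome genes with the enzymes that process them, ubiquitin supply and delivery, and the class I genes above. Without the block limma called 1 gene of these lists, the transcription factor Mafg. With the block 3, 4 and 4 genes of the first 3 lists rose and 0 fell, where 2.55% of all genes rose and 2.25% fell. The lists were chosen with earlier results of these data known, so these counts beside the shares of all genes are no test of the lists. In each of these 11 genes apart from Maff, all 3 C28 libraries lay above all 3 DMSO libraries, as they did in 8.16% of all genes. These genes were picked by a rise in the same libraries, so the lack of overlap adds no support.

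Among transcription factors, 1 of 12 tested genes rose without the block and 4 of 12 with it, and the median log2 fold change was 0.19. Mafg, a small Maf protein that pairs with NRF1, NRF2 or BACH1 on antioxidant response elements, had 4010, 3366 and 3182 normalized counts in C28 replicates 1 to 3 and 1588, 1715 and 1869 in DMSO replicates 1 to 3. Its log2 fold change was 1.03 ± 0.10 (limma adjusted p = 0.0196, with the block 0.000111). Without the block this call was lost when C28 replicate 2 or 3 or any 1 DMSO replicate was left out, where the log2 fold change of Mafg was 0.97 to 1.09. Bach1, a repressor that binds the same elements, had 2194, 1297 and 1265 normalized counts in C28 replicates 1 to 3 and 668, 690 and 749 in DMSO replicates 1 to 3, a log2 fold change of 1.13 ± 0.20 (limma adjusted p = 0.162, with the block 0.00137). C28 replicate 1 was the highest library for both Mafg and Bach1. With the block, the call of Bach1 was lost without replicate 2 of both arms. Maff, another small Maf, had 239, 130 and 190 normalized counts in C28 replicates 1 to 3 and 140, 101 and 117 in DMSO replicates 1 to 3. The arms of Maff overlapped, with C28 above DMSO in each replicate, and its log2 fold change was 0.61 ± 0.24 (limma adjusted p = 0.609, with the block 0.0225). With the block, the call of Maff was lost whichever pair was left out, and DESeq2 did not call it (adjusted p = 0.369).

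Nfe2l1, which encodes NRF1, had 4595, 5263 and 4687 normalized counts in C28 replicates 1 to 3 and 3656, 4127 and 3932 in DMSO replicates 1 to 3, with no overlap. Its log2 fold change was 0.31 ± 0.08 (limma adjusted p = 0.332, with the block 0.00272). With the block, the call of Nfe2l1 was lost without replicate 2 or replicate 3 of both arms, and DESeq2 did not call it (adjusted p = 0.115). Nfe2l2, which encodes NRF2, the regulator of the oxidative stress response, had 1911, 1790 and 1763 normalized counts in C28 replicates 1 to 3 and 2241, 1996 and 1976 in DMSO replicates 1 to 3. All 3 C28 libraries of Nfe2l2 lay below all 3 DMSO libraries, with a log2 fold change of -0.18 ± 0.08 that limma did not call (adjusted p = 0.632, with the block 0.0631). In edgeR with the block Nfe2l2 was called as lower (adjusted p = 0.0407), and DESeq2 did not call it (adjusted p = 0.778). Fbxw7, a ubiquitin ligase subunit that acts on NRF1, Keap1, which targets NRF2 for degradation, and Syvn1, an endoplasmic reticulum ubiquitin ligase, had log2 fold changes of 0.25 ± 0.18, 0.20 ± 0.07 and 0.18 ± 0.13 and were not called in either limma fit. In edgeR with the block, Fbxw7 (adjusted p = 0.039) and Keap1 (adjusted p = 0.0303) were called as higher and Syvn1 was not. DESeq2 called none of them.

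Of the accessory subunits, assembly factors and activators, 21 were tested, 0 were called without the block and 3 rose with it, and the median log2 fold change was 0.02. Zfand2a, a stress-induced protein that associates with the proteasome, had 1691, 1924 and 1617 normalized counts in C28 replicates 1 to 3 and 1006, 1344 and 1228 in DMSO replicates 1 to 3, a log2 fold change of 0.55 ± 0.12 (limma adjusted p = 0.252, with the block 0.00123). Zfand5, which binds the proteasome and raises its activity, had 1950, 1921 and 1987 normalized counts in C28 replicates 1 to 3 and 1350, 1462 and 1452 in DMSO replicates 1 to 3, a log2 fold change of 0.46 ± 0.07 (limma adjusted p = 0.072, with the block 0.000765). With the block, the calls of Zfand2a and Zfand5 were lost without replicate 2 of both arms. Psmd5, a chaperone of cap assembly that is not part of the finished complex, had 4110, 4493 and 4292 normalized counts in C28 replicates 1 to 3 and 3323, 3596 and 3395 in DMSO replicates 1 to 3. In Psmd5 the arms did not overlap, and its log2 fold change was 0.32 ± 0.06 (limma adjusted p = 0.201, with the block 0.00197). With the block, the call of Psmd5 was lost without replicate 2 or replicate 3 of both arms. The assembly factor Psmg3 had a log2 fold change of -0.21 ± 0.11 and the proteasome-bound deubiquitinase Usp14 one of 0.16 ± 0.06, neither called in either limma fit of all libraries. Usp14 was called as higher in edgeR with the block (adjusted p = 0.0238). Limma with the block called it too without replicate 1 of both arms (adjusted p = 0.00712), and DESeq2 did not (adjusted p = 0.778). Psmb11, the beta subunit of the thymus, stood at 0 to 1.91 normalized counts in every library, with a log2 fold change of 0.20 ± 0.53, and Psma8, the alpha subunit of the testis, had no read. Pomp, the maturation factor of the core, and Psme1 and Psme2, the subunits of the interferon-inducible activator, had log2 fold changes of 0.02 ± 0.08, -0.08 ± 0.08 and 0.00 ± 0.11.

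Of the 21 genes of ubiquitin supply and delivery, 0 were called without the block and 4 rose with it, and the median log2 fold change was 0.02. Sqstm1, which encodes p62, a receptor that carries ubiquitinated cargo to autophagosomes, had 21485, 12037 and 12217 normalized counts in C28 replicates 1 to 3 and 10375, 7189 and 6913 in DMSO replicates 1 to 3. Replicate 1 was the highest library in both arms, and the log2 fold change of Sqstm1 was 0.87 ± 0.25 (limma adjusted p = 0.413, with the block 2.07e-05). The polyubiquitin gene Ubb had 22722, 24371 and 22276 normalized counts in C28 replicates 1 to 3 and 19891, 20142 and 19342 in DMSO replicates 1 to 3, a log2 fold change of 0.22 ± 0.06 (limma adjusted p = 0.353, with the block 0.00989). With the block, the call of Ubb was lost without replicate 2 or replicate 3 of both arms, and DESeq2 did not call it (adjusted p = 0.201). Bag3, a co-chaperone of selective autophagy, had 810, 861 and 763 normalized counts in C28 replicates 1 to 3 and 495, 603 and 639 in DMSO replicates 1 to 3, a log2 fold change of 0.49 ± 0.11 (limma adjusted p = 0.283, with the block 0.00852). With the block, the call of Bag3 was lost without replicate 2 of both arms. Rps27a, a ubiquitin fusion gene, and the ubiquilin Ubqln4 had log2 fold changes of 0.19 ± 0.17 and -0.13 ± 0.10, and Nploc4, a cofactor of the segregase VCP, 0.12 ± 0.06, none called in either limma fit.

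**Figure D5:**
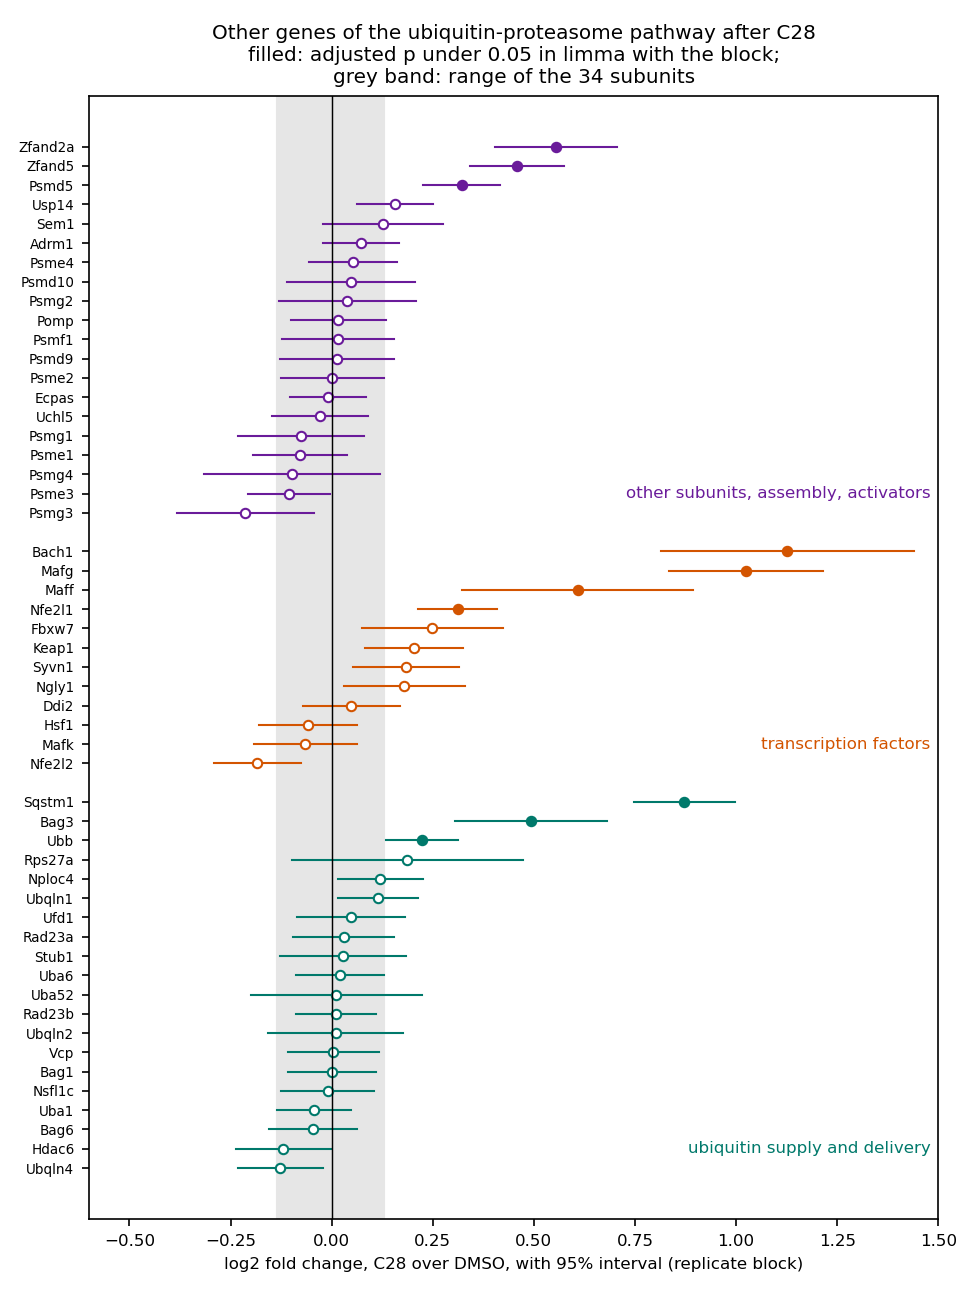
Log2 fold change (C28 over DMSO, horizontal axis) with 95% intervals from limma with the replicate block for tested genes of 3 lists around the proteasome; filled points passed an adjusted p of 0.05 in that fit, the grey band is the range of the 34 subunits (-0.13 to 0.13), and Psmb11, at under 2 normalized counts, and 1 gene of the ubiquitin list are not drawn. The 10 filled points, led by Bach1 (1.13) and Mafg (1.03), all lie to the right of the band.

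Promoters were read for the 28 subunits with an entry in RefSeq's table on GRCm38.p6 (not Psmb1, Psmb2, Psmb7, Psmc3, Psmd3 and Psmd7), as windows of 300 bases from 250 before to 50 after each start, on both strands. TGACNNNGC, the letters of the antioxidant response element that NRF1 and NRF2 bind with a small Maf, was found in 4 of 28 subunits (14.3%), against 14% of 27025 genes with a promoter, and in 17 of 58 genes of the pathway lists (29.3%). A gene counted if any of its windows held a match. There were 30 windows for the subunits, 74 for the pathway genes and 32851 for all genes. The shares therefore rest on unlike lengths of sequence per gene, and the pathway lists were chosen with earlier results known. The looser TGANNNNGC, which includes every TGACNNNGC match, was found in 57.1% of the 28 subunits and 45% of all genes. CCAAT was found in 39.3% of the subunits and 41.1% of all genes, and GAANNTTC in 7.14% (Psmb5 and Psmb9) and 9.04%. The share of subunits with these letters was thus near that of all genes for TGACNNNGC, CCAAT and GAANNTTC. A match is a description of letters and not a binding site.

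A match was found both among genes that rose and among genes that were not called, and no test of this was made. Of the 17 pathway genes with TGACNNNGC, 4 rose in limma with the block, 12 were tested and not called, among them Nfe2l2, Mafk, Vcp and Adrm1, and 1 was not tested. Of the 11 pathway genes that rose, 10 had a promoter entry, and 6 of these had no such match in the window (Psmd5, Zfand2a, Nfe2l1, Bach1, Bag3 and Sqstm1). The stretches around the match are shown for the 4 subunits that held one and for the 4 pathway genes that held one and rose. Capitals mark the match, as its reverse complement where it lies on the other strand, and each line runs 5′ to 3′ on the strand of the gene. The subunits are Psmb5 (chr14:54618004-54618072, minus strand), Psmb6 (chr11:70525318-70525356, plus strand), Psmc6 (chr14:45329574-45329635, plus strand) and Psmd12 (chr11:107479278-107479319, plus strand).
Psmb5: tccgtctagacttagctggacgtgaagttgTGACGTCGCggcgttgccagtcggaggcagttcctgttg
Psmb6: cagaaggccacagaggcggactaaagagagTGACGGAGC
Psmc6: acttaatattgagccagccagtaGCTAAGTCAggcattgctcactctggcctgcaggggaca
Psmd12: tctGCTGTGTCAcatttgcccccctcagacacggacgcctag

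The genes that rose are Mafg (chr11:120633731-120633797, minus strand), Maff (chr15:79346479-79346547, plus strand), Ubb (chr11:62551672-62551730, plus strand) and Zfand5, with a match in each of its stretches (chr19:21272053-21272121 and chr19:21272153-21272221, plus strand).
Mafg: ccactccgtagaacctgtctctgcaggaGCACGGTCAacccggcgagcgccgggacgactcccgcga
Maff: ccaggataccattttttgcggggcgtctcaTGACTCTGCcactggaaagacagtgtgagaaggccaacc
Ubb: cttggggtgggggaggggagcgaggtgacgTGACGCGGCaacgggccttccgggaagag
Zfand5, upstream: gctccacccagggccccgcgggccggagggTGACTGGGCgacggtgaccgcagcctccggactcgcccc
Zfand5, downstream: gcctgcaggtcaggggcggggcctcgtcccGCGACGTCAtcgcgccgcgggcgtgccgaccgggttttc
The log2 fold changes of these genes after C28 were 0.07, 0.02, 0.04 and 0.00 for the subunits Psmb5, Psmb6, Psmc6 and Psmd12. They were 1.03 for Mafg, 0.61 for Maff, 0.22 for Ubb and 0.46 for Zfand5. Whether these letters are bound in these cells was not measured.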

How the data were processed

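RNA of 6 libraries, 3 with C28 and 3 with DMSO, was analysed, grouped and numbered by sample title. Per the submitters' processing notes, Bowtie2 and Cufflinks 2.2.1 were used on build mm9, in roles not stated. The deposited table holds a signal per gene, which the authors made by dividing read counts by 1 factor per library: 100% of values were whole multiples, within 0.01, of 1 read. It also holds the authors' log2 fold change and adjusted p-value. For the counting tool and its use of strand the labels give no answer, so a gene and an overlapping antisense gene may share reads. The authors' H3K27ac peaks are on mm9 and were not used here, since the gene tables at hand are on GRCm38.p6.

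For a name with several rows, only the one with the highest mean entered. The filter on low values kept 19054 genes that reached 1 in 3 or more of 6 libraries. They were tested with limma 3.58.1 (R 4.3.3), with an intensity trend, on log2(value + 1), with Benjamini-Hochberg adjustment over all of them (threshold 0.05). The log2(value + 1) scale understates fold changes of low genes. edgeR 4.0.16 and DESeq2 1.42.0 were run on the recovered reads. The fits were also run on simulated counts with known changes, larger than any of the subunits and without a difference by replicate number. That run checked the code and does not bear on the results given here. Levels are not compared between genes, since no transcript lengths were used. Replicate numbers were taken as pairs from the data, over 10572 genes with a mean of 50 or more. Each library's deviation from its arm's mean correlated at 0.84, 0.68 and 0.71 between same-numbered libraries. C28 replicate 3 and DMSO replicate 2 also reached 0.54, and C28 replicate 2 and DMSO replicate 3 reached 0.41. Replicate 1 standing apart raises the correlations of all same-numbered libraries, so these values cannot show whether replicates 2 and 3 were paired.

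The members and gene lists were chosen with earlier results of these data known. Of 143 listed genes 142 were matched by name, all but Paaf1. All members were described. Values per library are given for called members, for the highest and lowest fold change of each subfamily, and for the immunoproteasome subunits with their counterparts. Of the other lists, called genes, up to 3 more with the largest change, and Nfe2l1, Nfe2l2, Psme1, Psme2, Pomp and Psmd5 were named, but 2 listed genes, which stay in the counts, are not reported here by name. Promoters came from RefSeq.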

Additional observations from a re-analysis of the deposited data

How the results depend on the processing

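The count of called subunits stayed at 0 of 34 in all 20 fits run, which varied the replicate block, the pseudocount (0.5 and 10), the filter, TMM scaling, the tool and the libraries left out. The smallest adjusted p was 0.0544 (Psma1), with the block and without replicate 1 of both arms. The replicate block changed the counts of the lists around the proteasome. For accessory subunits, assembly factors and activators that rose, against 0 without the block, the count was 3 with the block, 3 with DESeq2, 4 with edgeR and the block, and 1 without replicate 1 of both arms and no block. With the block and 1 pair left out it ranged from 0 to 5. For transcription factors that rose, against 1, it was 4 with the block, 2 with DESeq2, 6 with edgeR and the block (and 1 fell, Nfe2l2), and 2 without replicate 1 of both arms and no block. With single libraries left out it ranged from 0 to 2: it was 2 without C28 replicate 1, and Mafg was lost without C28 replicate 2 or 3 or any 1 DMSO replicate. With the block and 1 pair left out it was 1 to 3. For ubiquitin supply and delivery, against 0, it was 4 with the block, 3 with DESeq2, 4 with edgeR and the block, 1 without replicate 1 of both arms and no block, and 2 to 4 with the block and 1 pair left out. Without replicate 2 of both arms, limma with the block called none of Bach1, Zfand5, Zfand2a, Bag3, Nfe2l1, Psmd5, Ubb and Maff. The cause was not tested. Subunits lower in replicate 1 numbered 9, against 5, with a mean of at least 10 as filter, where fewer genes were tested. The share of all genes lower in replicate 1 was not computed for that filter. Whether the count of 9 is particular to the subunits can therefore not be read from it.

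Over all genes, limma called 26 without the block and 914 with it, DESeq2 182 and edgeR with the block 1332. With the block, limma called 853, 50 and 207 without replicates 1, 2 and 3 of both arms. Stricter peak thresholds and other overlaps for H3K27ac were not run, since the peaks were not used. The subunits averaged 363 to 9468 normalized counts over the 6 libraries, and the median coefficient of variation between libraries was 5.96%.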
